A study of Homo sapiens with 3 samples.

Results

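The genes described here make cholesterol, sense it and move it. They were taken by name from a list of 31 genes, and every array probe that the platform annotation assigns to a listed gene was used. Of the 31 genes, 29 had a named probe, with 43 probes in all, out of 20043 named genes and 47315 probes on the array. FDFT1 and NR1H2 had none and were not analysed here. The cells were HCC1937, an established human breast cancer line that the labels class as basal, and all groups were grown in DMEM that held glucose at 3 mM and glutamine at 0.5 mM. RNA from each group went onto 1 Illumina bead array, 3 in all. The groups were untreated cells, cells treated for 16 h with 200 nM dexamethasone, a synthetic glucocorticoid, and cells treated for 16 h with 200 nM dexamethasone plus retinoic acid at 1 µM (called the combination).

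Cells build cholesterol from acetyl-CoA, first along the mevalonate steps to farnesyl diphosphate and then through squalene and lanosterol to cholesterol. The enzyme genes are switched on together by SREBP transcription factors, which SCAP carries out of the endoplasmic reticulum when sterols are scarce and which INSIG proteins hold back when sterols are plentiful. NPC1 and NPC2 release cholesterol from lysosomes, and the oxysterol-sensing LXR receptors switch on the exporters ABCA1 and ABCG1 and the ubiquitin ligase MYLIP, which removes lipoprotein receptors.

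A detection p-value under 0.01 marked a probe as detected, and 16635 to 17091 probes per array passed. Each group had 1 array, so there is no test and no replicate check for any difference, and precision is limited by this number of arrays. The bead standard error (SE) printed with a difference covers only the beads within the arrays, 9 to 35 per array for the members' probes. The dexamethasone array lay alone on slide 2, and the other 2 arrays shared slide 1, so in both comparisons that use it slide and treatment cannot be told apart. All 3 comparisons draw on the same 3 arrays and are therefore not independent of each other. SGK1, a glucocorticoid target, was 43.0-fold higher on the dexamethasone array and 33.7-fold higher on the combination array than on the untreated one. CYP26A1, a retinoic acid target, was detected on the combination array alone. The epithelial markers EPCAM, CDH1, KRT8 and KRT18 were detected on all 3 arrays, whereas the basal keratin KRT5 was detected only on the dexamethasone array and KRT14 on none. KRT17 and TP63, the other basal markers listed, had no named probe and were not read. The luminal markers ESR1, GATA3 and FOXA1 were detected on all 3 arrays, which goes against the basal label. All 3 were at least 2-fold lower after dexamethasone, against 4.57% of all genes detected on 1 or both arrays compared. With the combination 2 of them were at least 2-fold lower, against 5.43%. These were just past the limit, ESR1 at 2.02-fold and GATA3 at 2.01-fold lower, and FOXA1 was 1.29-fold lower. The leukocyte and endothelial markers PTPRC and PECAM1 were detected on none. The fibroblast marker COL1A1 was detected on the untreated (6.77) and dexamethasone (6.44) arrays and was at least 2.21-fold lower with the combination, and the hepatocyte marker ALB was detected on all 3 arrays, dimly, at 6.42, 5.96 and 6.42. The part of these markers in the sterol values was not tested.

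Across the list, most levels on the treated arrays lay below the untreated ones. Levels are log2 values of background-corrected, quantile-normalized intensity of the brightest probe of each gene, and genes whose brightest probe was detected on 1 or both arrays of a comparison count as measured in it. After dexamethasone, 5 of 28 measured members were at least 2-fold lower (17.9%), against 4.57% of all 10852 measured genes, and 1 was at least 2-fold higher, against 5.73%. At a 1.5-fold limit 14 were lower, against 13.7% of all genes, and 2 were higher, against 13.4%. Of the 28, 21 lay below 0, against 49.6% of all genes. The median log2 difference was -0.52 over the members and 0.00 over all measured genes. With the combination, 7 of 27 members were at least 2-fold lower (25.9%), against 5.43% of 10705 genes, and 0 were 2-fold higher, against 5.84%. There 9 were at least 1.5-fold lower, against 16.1% of genes, and 4 were higher, against 15.5%, with a median of -0.46 for the members and -0.01 for all genes. Here 21 of 27 lay below 0, against 50.5%. How many members passed 2-fold depended on the background step, since only INSIG1 was 2-fold lower after dexamethasone without background correction, where the share of all genes was 1.63%. The median there was -0.38 after dexamethasone and -0.35 with the combination.

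**Figure D1:**
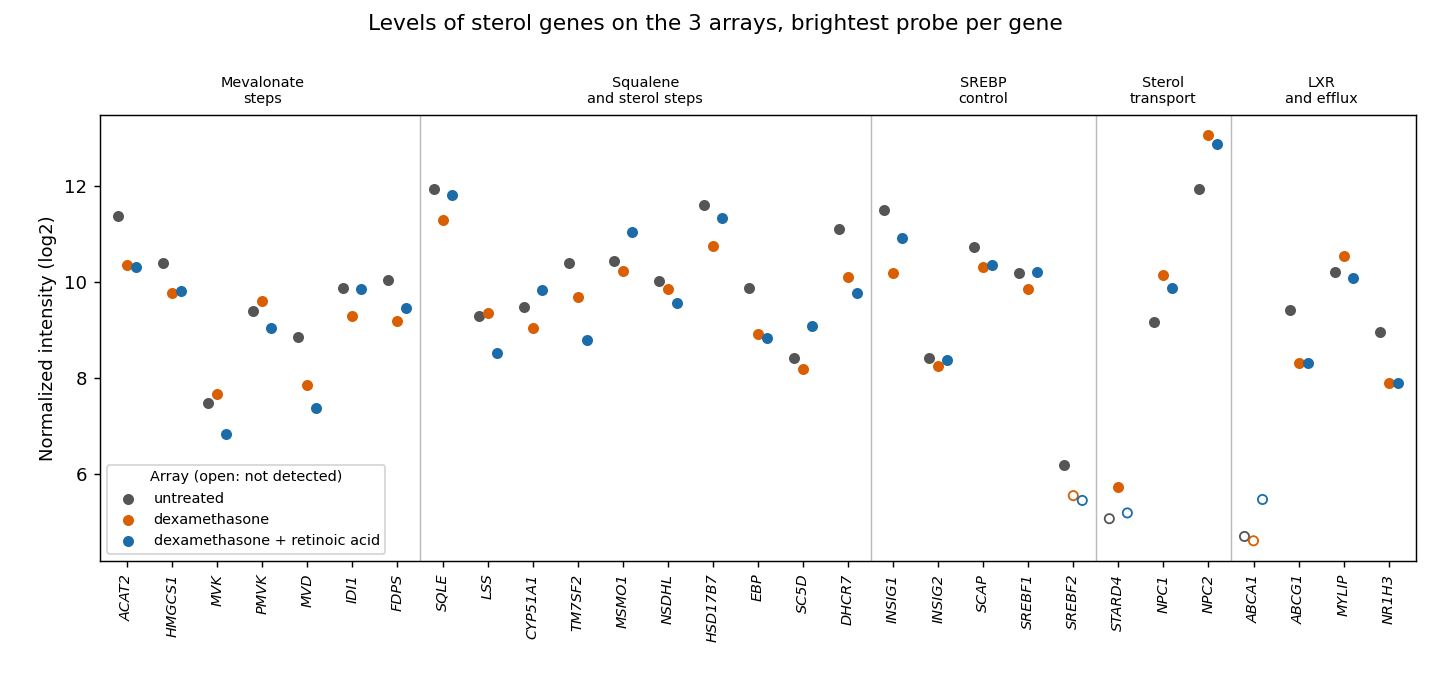
Normalized log2 intensity (vertical axis) of the brightest probe of each of the 29 sterol genes (horizontal axis, by role) on the untreated, dexamethasone and combination arrays, with 1 point per array and open circles where the probe was not detected. Of the 26 genes detected on all 3 arrays, 16 have their highest point on the untreated array.

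The order of the arrays split the list. Among the 26 members detected on all 3 arrays, 16 were highest on the untreated array, against 37.5% of the 9254 genes detected on all 3, and 2 were lowest there, against 35.6%. The dexamethasone array held the lowest level of 13 members, against 29.4% of genes, and the highest of 6, against 30.1%. The combination array held the lowest level of 11, against 35.0%, and the highest of 4, against 32.3%. Levels on the combination array thus lay above those of the dexamethasone array for some steps of the pathway and below them for others, and the sections that follow give them by role. Genes of proliferation were also lower on both treated arrays. Of 20 measured, 10 were at least 2-fold lower and 0 higher after dexamethasone (median -0.91), and 5 were lower and 0 higher with the combination (median -0.67). Among all genes 4.57% were 2-fold lower and 5.73% higher after dexamethasone, and 5.43% and 5.84% with the combination. RRM2, which helps make deoxynucleotides, was 3.83-fold lower after dexamethasone and 2.24-fold with the combination, and MCM7, part of the replicative helicase, 2.81-fold and 2.31-fold. The part of growth rate in the sterol values was not tested.

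Promoter windows of 5 members are shown. INSIG1 (lowest after dexamethasone), TM7SF2 (lowest with the combination), SC5D (highest with the combination) and NPC2 (higher on both treated arrays) stand for different orders of the arrays, and SREBF2 was added for its sterol element match. Each window runs from 250 bases before to 50 bases after an annotated start, from RefSeq on GRCh38.p14, written 5′ to 3′ on the gene's strand. Capitals mark matches, on either strand, to TCACNCCAC, the core of the sterol regulatory element bound by SREBP, and to CCAAT, the box bound by NF-Y. INSIG1 lies at chr7:155297628-155297927 (plus strand), SREBF2 at chr22:41832855-41833154 (plus strand), TM7SF2 at chr11:65111622-65111921 (plus strand), SC5D at chr11:121292521-121292820 (plus strand) and NPC2 at chr14:74493256-74493555 (minus strand). SC5D and NPC2 have 2 windows each, of which 1 is shown.
INSIG1: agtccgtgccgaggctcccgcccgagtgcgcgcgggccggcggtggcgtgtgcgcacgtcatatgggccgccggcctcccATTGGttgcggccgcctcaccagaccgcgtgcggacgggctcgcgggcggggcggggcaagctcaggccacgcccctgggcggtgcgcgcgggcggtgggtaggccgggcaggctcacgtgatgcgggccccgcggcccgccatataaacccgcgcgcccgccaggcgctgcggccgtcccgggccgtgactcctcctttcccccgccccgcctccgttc
SREBF2: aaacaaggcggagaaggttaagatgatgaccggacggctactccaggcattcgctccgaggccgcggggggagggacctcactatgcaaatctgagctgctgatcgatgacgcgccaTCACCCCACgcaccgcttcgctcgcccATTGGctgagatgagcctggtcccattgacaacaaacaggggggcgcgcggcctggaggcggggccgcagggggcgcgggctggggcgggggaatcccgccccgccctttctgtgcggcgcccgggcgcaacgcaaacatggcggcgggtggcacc
TM7SF2: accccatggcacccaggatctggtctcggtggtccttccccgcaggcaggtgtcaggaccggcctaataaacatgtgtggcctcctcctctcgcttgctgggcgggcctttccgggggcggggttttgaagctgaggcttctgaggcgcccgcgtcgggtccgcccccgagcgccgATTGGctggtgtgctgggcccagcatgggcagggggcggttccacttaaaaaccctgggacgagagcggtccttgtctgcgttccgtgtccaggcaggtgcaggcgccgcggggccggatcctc
SC5D: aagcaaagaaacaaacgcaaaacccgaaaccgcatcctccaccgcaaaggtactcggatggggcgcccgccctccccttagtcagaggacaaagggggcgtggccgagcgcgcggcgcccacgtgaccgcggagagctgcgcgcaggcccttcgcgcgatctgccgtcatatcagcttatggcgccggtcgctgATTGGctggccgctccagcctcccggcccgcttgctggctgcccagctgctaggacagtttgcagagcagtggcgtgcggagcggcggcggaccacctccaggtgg
NPC2: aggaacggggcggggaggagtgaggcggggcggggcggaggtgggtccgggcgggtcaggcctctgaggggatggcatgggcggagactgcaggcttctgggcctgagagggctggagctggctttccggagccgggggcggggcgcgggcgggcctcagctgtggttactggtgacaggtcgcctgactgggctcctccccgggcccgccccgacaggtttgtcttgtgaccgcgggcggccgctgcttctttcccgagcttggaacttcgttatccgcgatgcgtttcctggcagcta

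Windows were found for 27 of the 31 genes, and a gene with several windows was counted once if any held a match. Matches to each motif were counted on both strands and separately, whether or not they overlapped those of another motif. A CCAAT match lay in a window of 13 of the 15 synthesis genes with one and of 19 of the 27 members, against 39.7% of 27305 genes. The GC box GGGCGG, bound by Sp1, was found in 26 of the 27 members, against 48.3% of genes, and the E-box CACGTG in 5, against 8.77%. SREBF2 alone among the members held the sterol regulatory element core, against 1.39% of genes. These shares are over all genes with a window, detected on the arrays or not, whereas most members with a probe were detected. In the windows shown, INSIG1, SREBF2, TM7SF2 and SC5D each had 1 CCAAT match and the NPC2 window had 0, although the other window of NPC2 held 2. These matches describe the letters of the windows and not the binding of a factor.

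The mevalonate steps were lower after dexamethasone in 5 of 7 genes at the 1.5-fold limit, against 13.7% of all genes, with a median log2 difference of -0.62. With the combination 3 of 7 passed that limit, all lower, against 16.1% of all genes, with a median of -0.58. Without background correction HMGCS1 (-0.56) and IDI1 (-0.51) fell short of it after dexamethasone, and MVK (-0.35) with the combination. ACAT2, the thiolase that makes acetoacetyl-CoA, had log2 levels of 11.36 on the untreated, 10.35 on the dexamethasone and 10.31 on the combination array. It was 2.01-fold lower after dexamethasone (log2 difference -1.01, bead SE 0.09) and 2.06-fold lower with the combination (-1.04, bead SE 0.11). Its level was thus high on the untreated array and nearly equal on both treated arrays, though a dim second probe, near the detection limit, was at least 1.12-fold lower after dexamethasone, where it was not detected, and differed by -0.03 with the combination. HMGCS1, the cytosolic HMG-CoA synthase, was likewise highest on the untreated array, at 10.39, 9.77 and 9.81, a difference of -0.62 after dexamethasone (bead SE 0.08) and -0.58 with the combination (bead SE 0.10).

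MVD, the decarboxylase that yields isopentenyl diphosphate, had levels of 8.85 untreated, 7.86 after dexamethasone and 7.38 with the combination. It was 1.99-fold lower after dexamethasone (bead SE 0.15 on the log2 scale) and 2.78-fold lower with the combination (bead SE 0.16). Only 1.76% of all measured genes were further down than MVD with the combination. The kinases behaved differently, since neither was lower after dexamethasone. MVK, mevalonate kinase, had levels of 7.48, 7.67 and 6.84, so that it was 1.77-fold lower with the combination than with dexamethasone (log2 difference -0.83, bead SE 0.09). PMVK, which adds the next phosphate, had levels of 9.40, 9.60 and 9.04, the same order, and differed by -0.56 between the treated arrays (bead SE 0.09).

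Of the last mevalonate genes, IDI1 was low on the dexamethasone array alone, and FDPS was low on both treated arrays, lowest after dexamethasone. IDI1, the isomerase of isopentenyl diphosphate, read 9.87 on the untreated, 9.28 on the dexamethasone and 9.84 on the combination array. Its log2 difference after dexamethasone was -0.59 (bead SE 0.08), just past the 1.5-fold limit, and on the combination array it differed from untreated by -0.03 (bead SE 0.08). FDPS, which makes farnesyl diphosphate, had levels of 10.03, 9.18 and 9.45, a difference of -0.85 after dexamethasone (bead SE 0.12) and -0.57 with the combination (bead SE 0.11). FDPS has processed pseudogenes in the human genome, and the probe may not tell their transcripts apart.

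In the squalene and sterol steps 5 of 10 measured genes were at least 1.5-fold lower after dexamethasone and 0 were higher, with a median of -0.55. Of all genes 13.7% were lower and 13.4% higher. With the combination 4 were lower and 2 higher at that limit, against 16.1% and 15.5%, with a median of -0.36. MSMO1, 1 of the 2 higher genes, was higher on its brightest probe only. SQLE, squalene epoxidase, had levels of 11.93 on the untreated, 11.29 on the dexamethasone and 11.80 on the combination array. It was 1.56-fold lower after dexamethasone (log2 difference -0.64, bead SE 0.09), and its second probe differed by -0.58. The level with the combination lay between the others on both probes, closer to the untreated array on the brighter one. LSS, lanosterol synthase, kept nearly the same level on the untreated (9.28) and dexamethasone (9.36) arrays and was lower on the combination array, at 8.51. That made it 1.80-fold lower than with dexamethasone (log2 difference -0.85, bead SE 0.12), and its other 2 probes were detected on no array.

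TM7SF2, a sterol reductase that acts after lanosterol demethylation, showed the lowest difference on any member's brightest probe. Its levels were 10.40 untreated, 9.69 after dexamethasone and 8.78 with the combination. The gene was 1.63-fold lower after dexamethasone (bead SE 0.07 on the log2 scale) and 3.08-fold lower with the combination (log2 difference -1.62, bead SE 0.08), where 1.32% of measured genes lay further down. Adding retinoic acid to dexamethasone went with a further difference of -0.92 (bead SE 0.07).

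Another set of sterol-step genes was higher when retinoic acid accompanied dexamethasone. SC5D, the sterol desaturase near the end of the pathway, had levels of 8.42, 8.18 and 9.08 on the untreated, dexamethasone and combination arrays. It was 1.86-fold higher with the combination than with dexamethasone (log2 difference 0.90, bead SE 0.10) and 1.58-fold higher than untreated. CYP51A1, the cytochrome that demethylates lanosterol, gave 9.48, 9.03 and 9.83, again lowest after dexamethasone, and a 1.75-fold difference between the treated arrays (0.80, bead SE 0.11). HSD17B7, a ketoreductase of the sterol demethylation steps, read 11.59, 10.75 and 11.33. Its difference was -0.84 after dexamethasone (bead SE 0.08) and 0.59 between the treated arrays (bead SE 0.14), but this gene has a nearly identical pseudogene copy, so the signal cannot be assigned to it with certainty.

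MSMO1, the oxidase that removes methyl groups from the sterol ring, was read by 3 probes that disagreed. The brightest had levels of 10.44, 10.22 and 11.04, and was 1.76-fold higher with the combination than with dexamethasone (log2 difference 0.82, bead SE 0.08). A second probe moved the same way, with 9.22, 8.32 and 9.22 and a difference of 0.89 (bead SE 0.20). The dimmest probe went the other way between the treated arrays, from 6.92 to 6.11, a difference of -0.81 (bead SE 0.20). All 3 probes were lower after dexamethasone than untreated, by -0.22, -0.90 and -0.33 in the same order of probes. Against untreated, the combination differed by 0.60 on the brightest probe, by -0.01 on the second and by -1.14 on the dimmest, so the direction of MSMO1 there depends on the probe.

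**Figure D2:**
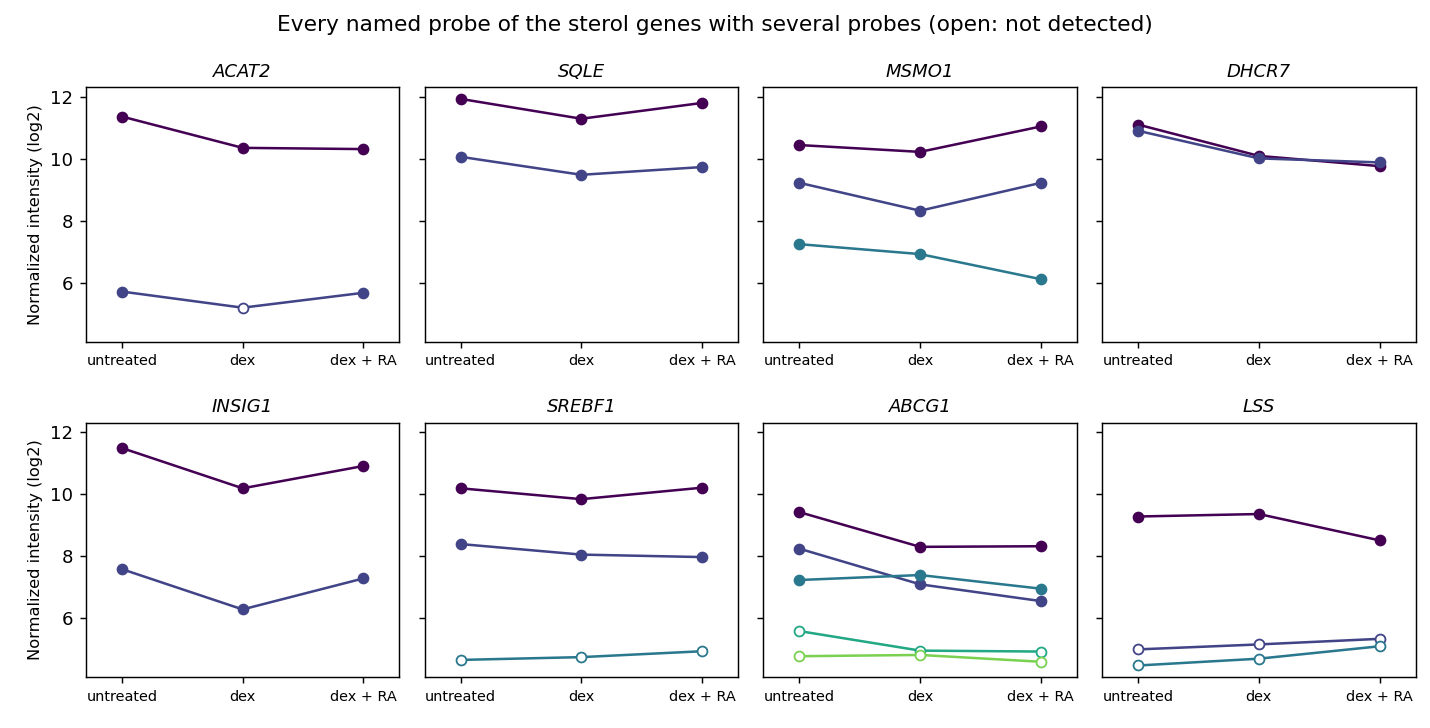
Normalized log2 intensity (vertical axis) on the 3 arrays (horizontal axis) for every named probe of the 8 sterol genes with several probes, with 1 line per probe and open circles where it was not detected. The 2 probes of INSIG1 and of DHCR7 run side by side, whereas the dimmest MSMO1 probe has its lowest point on the combination array while the other 2 lie higher there than after dexamethasone.

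EBP and DHCR7 were low on both treated arrays. EBP, the sterol isomerase, had levels of 9.88, 8.91 and 8.84, and was 1.96-fold lower after dexamethasone (bead SE 0.10 on the log2 scale) and 2.06-fold lower with the combination (bead SE 0.11). DHCR7, the reductase that completes cholesterol, had 11.10, 10.09 and 9.76 on its brighter probe. That is a 2.02-fold lower level after dexamethasone (log2 difference -1.01, bead SE 0.07) and a 2.55-fold lower level with the combination (-1.35, bead SE 0.06). Its other probe gave -0.89 and -1.02, in the same direction on both arrays. NSDHL, a dehydrogenase of the demethylation steps, stayed within 1.5-fold at 10.01, 9.84 and 9.55.

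SREBP control was led by INSIG1, itself an SREBP target, whose protein holds the SCAP complex in the endoplasmic reticulum. INSIG1 levels were 11.49 on the untreated, 10.19 on the dexamethasone and 10.91 on the combination array, and 7.58, 6.28 and 7.28 on its second probe. After dexamethasone INSIG1 was 2.46-fold lower on each probe (log2 difference -1.30, bead SE 0.12 and 0.16), the lowest difference of any member's probe in that comparison. With the combination it was 1.49-fold lower than untreated (-0.57, bead SE 0.09), and 1.65-fold higher than with dexamethasone alone (0.72, bead SE 0.12), or 2.01-fold on the second probe. Both probes thus placed the dexamethasone array lowest and the combination array in between.

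Of the remaining control genes, SREBF2, which encodes the SREBP most tied to cholesterol genes, was detected only on the untreated array, where its level was 6.19, and it read 5.55 and 5.45 on the others. Against the lowest detected value of each treated array it was at least 1.55-fold lower after dexamethasone (bead SE 0.32 on the log2 scale). With the combination it was at least 1.48-fold lower (bead SE 0.30). The SREBF2 signal was dim and close to background throughout, and these bounds depend on the background step. Without background correction the log2 difference after dexamethasone was -0.21. SREBF1, which encodes the SREBP more tied to fatty acid genes, had levels of 10.19, 9.84 and 10.21, and its second detected probe gave 8.39, 8.05 and 7.97. The probes shared a small negative difference after dexamethasone (-0.35 and -0.34) and disagreed about the combination (0.03 and -0.42). SCAP had 10.72, 10.30 and 10.35 and INSIG2 8.42, 8.24 and 8.38, all within 1.5-fold.

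**Figure D3:**
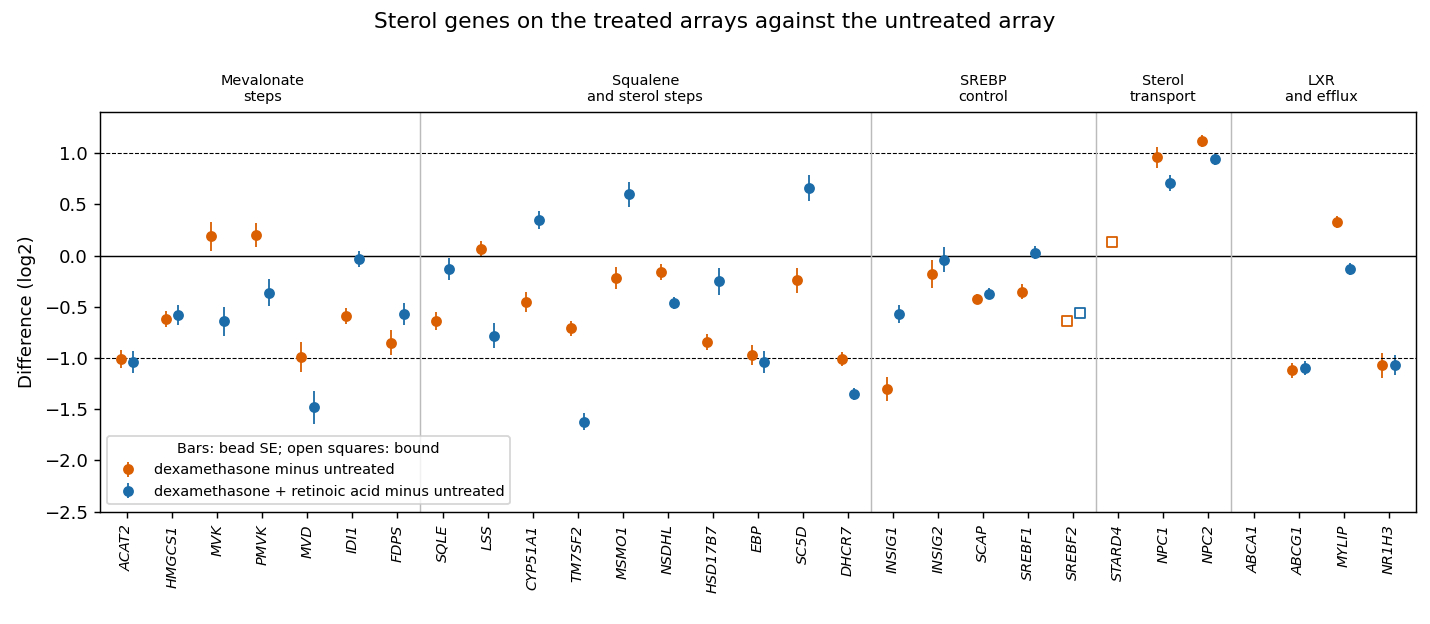
Log2 difference from the untreated array (vertical axis) of each sterol gene (horizontal axis, by role) on the dexamethasone and combination arrays, with bead SE bars, open squares for bounds and dashed lines at 2-fold. Most points lie below 0, NPC1 and NPC2 lie near 1, and TM7SF2 with the combination is lowest at -1.62.

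The lysosomal exporters stood apart from the enzymes, since both were higher on the treated arrays. NPC2, the soluble protein that binds cholesterol in the lysosome, had levels of 11.93 on the untreated, 13.05 on the dexamethasone and 12.87 on the combination array. It was 2.17-fold higher after dexamethasone (log2 difference 1.12, bead SE 0.06) and 1.92-fold higher with the combination (0.94, bead SE 0.05). NPC1, the membrane protein that takes the sterol over from NPC2, had 9.17, 10.14 and 9.88, and was 1.95-fold higher (0.96, bead SE 0.10) and 1.64-fold higher (0.71, bead SE 0.08). For both genes the untreated array was lowest and the dexamethasone array highest. STARD4, a cytosolic sterol carrier and SREBP target, was detected only on the dexamethasone array, at 5.72, where it was at least 1.09-fold higher than untreated.

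Of the LXR and efflux genes, 2 of 3 measured were at least 2-fold lower on each treated array. The shares of all genes were 4.57% after dexamethasone and 5.43% with the combination. Without background correction neither of the 2 passed 2-fold on either treated array. Their differences after dexamethasone were then -0.79 for NR1H3 and -0.89 for ABCG1. NR1H3, which encodes LXRα, had levels of 8.96, 7.90 and 7.89, and was 2.09-fold lower after dexamethasone (log2 difference -1.07, bead SE 0.12) and 2.10-fold lower with the combination (-1.07, bead SE 0.10). ABCG1, a sterol exporter and LXR target, gave 9.42, 8.30 and 8.32 on its brightest probe, a 2.18-fold lower level after dexamethasone (-1.12, bead SE 0.07) and 2.15-fold with the combination (-1.10, bead SE 0.07). On their brightest probes both genes were high on the untreated array and level between the treated ones. A second ABCG1 probe read 8.24, 7.09 and 6.55, differing by -1.15 and -1.69 from untreated. Another probe read 7.23, 7.39 and 6.95, so that it differed by 0.16 after dexamethasone and by -0.29 with the combination. These dimmer ABCG1 probes were not level between the treated arrays. The combination differed from dexamethasone by -0.54 (bead SE 0.16) on the second probe and by -0.45 (bead SE 0.14) on the other. MYLIP, also an LXR target, was not highest on the untreated array, with levels of 10.21, 10.54 and 10.08. ABCA1, the exporter that loads lipid-poor apolipoprotein, was detected on no array, with unnormalized intensities of 123.0, 133.3 and 177.7.

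Setting the combination against dexamethasone alone asked what went with the added retinoic acid. Neither direction held a member at 2-fold, where 2.99% of 10734 measured genes were higher and 3.58% lower. At 1.5-fold 5 of 27 members were higher, against 10.5% of genes, and 3 were lower, against 11.5%, and the median was -0.01 for the members and for all genes. SC5D, MSMO1, CYP51A1, INSIG1 and HSD17B7 were the higher ones and TM7SF2, LSS and MVK the lower ones. The MVK difference was -0.47 without background correction and -0.43 with the deposited values, short of 1.5-fold, and that of HSD17B7 was 0.56 under both. The synthesis genes divided evenly, with 8 above and 9 below 0, and over all members 14 of 27 lay below 0, against 51.0% of genes. Of the SREBP control genes other than INSIG1, SCAP (0.05, bead SE 0.06) and INSIG2 (0.14, bead SE 0.14) differed by no more than the bead SE, and the detected probes of SREBF1 disagreed (0.37 and -0.08). Scaling each array to its 75th percentile in place of quantile normalization moved the member median to 0.13 and took SC5D past 2-fold.

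**Figure D4:**
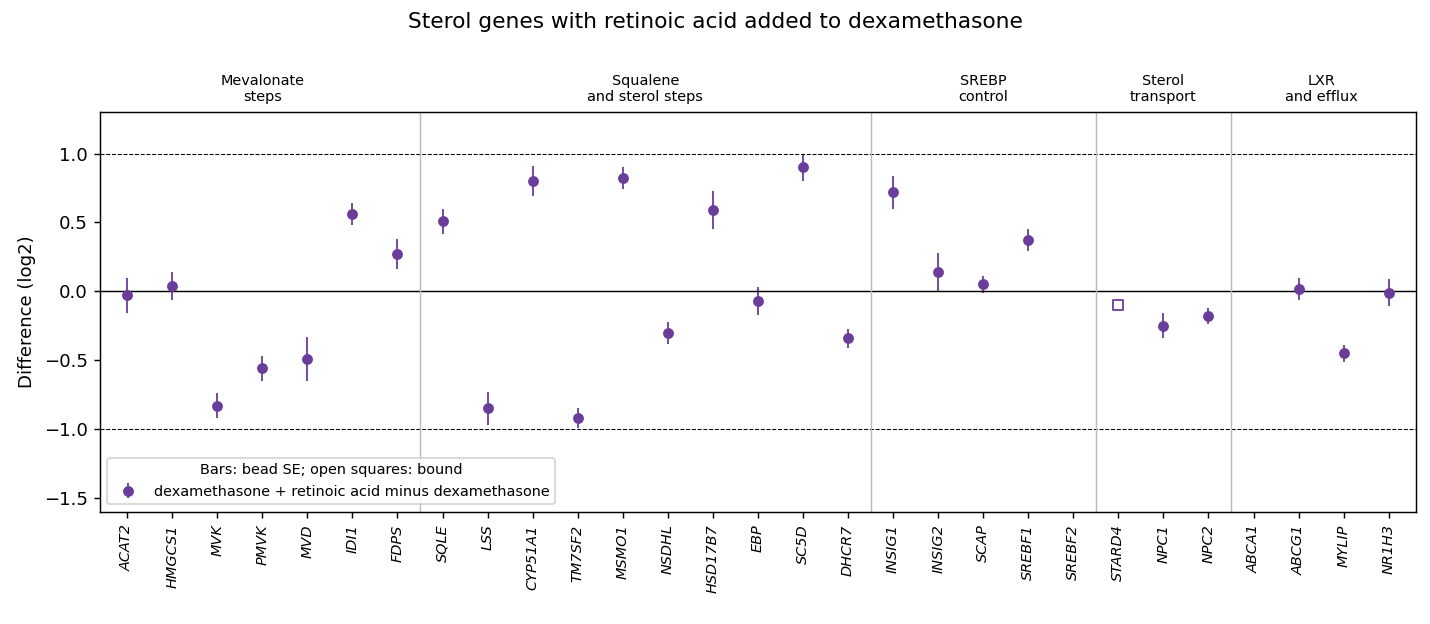
Log2 difference between the combination and dexamethasone arrays (vertical axis) of each sterol gene (horizontal axis, by role), with bead SE bars, an open square for a bound and dashed lines at 2-fold. All points lie between -0.92 for TM7SF2 and 0.90 for SC5D.

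Neighbouring parts of sterol biology were read from short companion lists, whose counts stand beside the 2-fold shares of all genes: 5.73% higher and 4.57% lower after dexamethasone, and 5.84% and 5.43% with the combination. Among 9 measured genes of the isoprenoid branch, which uses farnesyl diphosphate for other products, 1 was at least 2-fold lower after dexamethasone and 0 were higher, and with the combination 0 passed in either direction. The gene was FNTB, the beta subunit of protein farnesyltransferase, at 9.06 untreated, 8.04 after dexamethasone (2.02-fold lower, bead SE 0.11 on the log2 scale) and 8.19 with the combination. GGPS1, which makes geranylgeranyl diphosphate, differed by -0.11 and -0.01. Of 6 measured genes that cut SREBP or degrade sterol-regulated proteins, 0 passed 2-fold in any comparison. In that list MBTPS2, the protease that makes the second cut in SREBP, was nearest, at 8.16, 8.19 and 9.04, or 1.84-fold higher with the combination than untreated (bead SE 0.13).

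Of 10 measured genes of sterol storage and transport, 1 was 2-fold higher and 2 were lower after dexamethasone, and 2 were higher and 0 lower with the combination. LRP8, a lipoprotein receptor of the apolipoprotein E receptor family, had levels of 9.49, 7.63 and 8.83, so it was 3.64-fold lower after dexamethasone (bead SE 0.14 on the log2 scale) and 2.29-fold higher with the combination than with dexamethasone (bead SE 0.11). TMEM97, a sterol-regulated membrane protein that binds NPC1, read 11.82, 10.76 and 11.14 and was 2.08-fold lower after dexamethasone. On their brightest probes LRP8 and TMEM97 shared the order seen for INSIG1, lowest after dexamethasone and in between with the combination. Each had 1 other detected probe, whose values are not given here. VLDLR, another lipoprotein receptor, had levels of 5.66, 6.82 and 7.82, and was 4.46-fold higher with the combination than untreated (bead SE 0.20). Its untreated level was close to the lowest detected value of that array (5.59), so the size of this fold is uncertain. Its second probe was detected on no array. LIPA, the lysosomal acid lipase that frees cholesterol from its esters, had 9.69, 10.19 and 10.88, and was 2.28-fold higher with the combination (bead SE 0.08).

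Partners and further targets of LXR differed from gene to gene. Of 5 measured, 2 were at least 2-fold higher and 0 lower after dexamethasone, and 1 was higher and 0 lower with the combination. SMPDL3A, a secreted phosphodiesterase and LXR target in human cells, had levels of 7.97, 9.86 and 9.64, or 3.71-fold higher after dexamethasone (bead SE 0.13 on the log2 scale) and 3.17-fold higher with the combination (bead SE 0.14). Values of its other detected probe are not given here. RXRA, the partner receptor of LXR and of the retinoic acid receptors, had 10.13, 11.18 and 9.77. It was 2.06-fold higher after dexamethasone and 2.66-fold lower with the combination than with dexamethasone (log2 difference -1.41, bead SE 0.06). PLTP was detected on the untreated array alone, dimly, at 5.66. Its level was at least 1.08-fold lower after dexamethasone and at least 1.03-fold lower with the combination. LPCAT3 differed from untreated by 0.02 and 0.11, and RXRB by 0.39 on each treated array.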

How the data were processed

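Gene expression was measured in 3 samples of 1 cell line, as biotinylated cRNA on an Illumina bead array. Per the file headers, the deposited intensity is the mean over the beads of a probe, given with the bead number, the standard error over beads and a detection p-value. The values showed no scaling between arrays and no background subtraction. A second deposited table of intensity values had medians of 137.4, 137.5 and 137.5 and the same ranks within each array, which fits quantile normalization, but its software is not given in the sources used here.

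With limma 3.58.1 in R 4.3.3, background was corrected by normexp with an offset of 16, using negative controls inferred from the detection p-values, followed by quantile normalization between arrays and log2. Later steps used Python 3.11.15, numpy 2.4.6, pandas 2.3.3 and matplotlib 3.10.9. The platform annotation, which can be old, gave 1 gene symbol for 30109 probes and several for 8, and left 17198 probes unnamed. Gene identifiers of 30070 probes matched RefSeq (GRCh38.p14), and 0 symbols changed. Each gene was read by the probe with the highest mean, and all named probes of the members are reported. For genes outside the member list, values of other detected probes are not reported. Where a probe was undetected on 1 array of a pair, that array's lowest detected value, or the probe's own value where that was above it, stood in, so such folds are bounds ("at least"). The bead SE was carried to the log2 scale from the corrected values. The procedure was tested on simulated arrays.

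The members and lists were chosen with earlier results of these data known. All 31 members are named or counted, in full where a comparison reached 1.5-fold. Genes of the sterol, fatty acid and proliferation lists were named from those that reached 2-fold, at most 4 a list. GGPS1, MBTPS2, PLTP, LPCAT3, RXRB and the oxysterol enzymes lie outside this rule and were chosen after their values were seen. Cell type markers and treatment targets were named as checks, whatever their values. With 1 array per group no p-value was computed. The alternatives covered background, offset, scaling, the deposited values, the probe of a gene, the detection filter and threshold, and the bound.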

Additional observations from a re-analysis of the deposited data

How the results depend on the processing

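Of 135 values recomputed under 9 alternatives (medians and counts of members at 2-fold and 1.5-fold in each comparison), 119 stayed within the bead SE or within 1.5 times and 16 moved. Without background correction, the deposited values included, differences of dim probes shrink by construction. After dexamethasone the median was then -0.38 without correction and with the deposited values, and -0.42 with an offset of 50. The members 2-fold lower numbered 1, 1 and 2 there, against 5 in the main values, while the share of all genes was 1.63%, 1.52% and 2.99%, against 4.57%. With the median over detected probes they numbered 3, with 4.55% of all genes. With the combination the median was -0.35 without correction and -0.32 with the deposited values. The members 2-fold lower there numbered 3 without correction, 2 with the deposited values and 3 with scaling to the 75th percentile, against 7, while the share of all genes was 2.25%, 2.06% and 5.11%, against 5.43%. Those 1.5-fold higher numbered 2 without correction and 2 with the deposited values, against 4. Between the treated arrays, scaling to the 75th percentile gave a median of 0.13 and 1 member 2-fold higher; the cause was not tested. The medians against untreated stayed below 0 under all 9 alternatives, from -0.56 to -0.38 after dexamethasone and from -0.46 to -0.32 with the combination. Single members kept their sign in most cases. MSMO1 differed from untreated by -0.01 with the combination by the median over its probes, against 0.60. No paired analysis was possible because each group has 1 array, and slide could not be fitted as a block. Signals near background, those of SREBF2, STARD4 and ABCA1, limit what can be said of these genes.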

Other observations

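The fatty acid arm of SREBP targets was split in direction. At 1.5-fold, 3 of 9 measured genes were higher and 3 lower after dexamethasone, against 13.4% and 13.7% of all genes. With the combination 4 were higher and 2 lower, against 15.5% and 16.1%. Among the 9 genes measured, 2 passed 2-fold upwards and 1 downwards after dexamethasone, and 3 were higher and 0 lower with the combination, with medians of 0.01 and 0.06. Of all genes, 5.73% were 2-fold higher and 4.57% lower after dexamethasone, and 5.84% and 5.43% with the combination. FADS1, a desaturase of polyunsaturated fatty acids, had levels of 9.43 untreated, 11.64 after dexamethasone and 11.63 with the combination, or 4.61-fold and 4.57-fold higher. LPIN1, a phosphatidate phosphatase, read 9.70, 11.06 and 10.76, and was 2.57-fold and 2.08-fold higher. ELOVL6, a fatty acid elongase, gave 10.15, 8.70 and 9.57, and was 2.72-fold lower after dexamethasone, with the combination array in between. ME1, the malic enzyme that supplies NADPH, had 9.77, 9.78 and 10.93, and was 2.24-fold higher with the combination alone. No test was possible with 1 array per group.

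Of the oxysterol-making enzymes, 1 of the 3 with a named probe was detected. CYP27A1 was detected on the dexamethasone array alone, near the detection limit (log2 level 5.75), and CH25H and CYP7B1 were detected on no array.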
